A study of Mus musculus with 27 samples.

Results

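B cells stimulated with IL-4+anti-CD40 in the presence of disulfiram (DSF) were compared with unstimulated B cells, to ask which genes stayed away from the unstimulated level, which lay back at it and which lay beyond it. The libraries were chosen by their labels, 8 of the 27 in the series: 4 from stimulated cells with DSF and 4 from unstimulated cells. All came from splenic B cells of wild-type C57BL6 mice, purified by negative selection and cultured for 3 h. Unstimulated cells (NS) received neither stimulus nor drug, and the other group received IL-4, an antibody against CD40 and 1 μM DSF. A further 4 libraries, from cells given IL-4+anti-CD40 and vehicle, entered only to show where the stimulus alone had taken each gene. None of the groups held unstimulated cells given DSF, so in the comparison of stimulated cells with DSF against unstimulated cells the parts of the stimulus and of the drug cannot be told apart. The labels do not say whether the libraries of a group came from separate mice, and p-values measure the spread between these libraries, which may be technical.

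The unstimulated libraries did not form a uniform group. Replicates 1 and 2 resembled each other, as did replicates 3 and 4, and of 10315 well-counted genes (mean count 100 or above) the pair means lay 2-fold or more apart for 880 (8.53%), while replicates 1 and 2 did so for 3 genes and replicates 3 and 4 for 17. No label accounts for the split. Vehicle libraries were also closest within 1 and 2 and within 3 and 4. Among the DSF libraries replicates 1 and 2 were closest, while replicate 4 was nearer to 2 than to 3 (chi-square per gene 5.46 against 6.21), and 134 genes (1.3%) ranged 2-fold or more over the DSF libraries. Values against each unstimulated pair are therefore given in the plot of list medians and beside a number of single genes. Total counts were 19475589 to 22583661 in unstimulated cells, 17804851 to 20336023 with vehicle and 20137317 to 23632992 with DSF. Summed over 12 B cell markers, the level was 13800 to 20300 CPM (read counts scaled to a common library size after TMM normalization) in unstimulated libraries and 9720 to 9880 with DSF. The 12 T cell markers summed to 15.7 to 29.4 CPM in unstimulated cells and 18.4 to 21.1 with DSF, and the 12 myeloid markers to 855 to 881 and 397 to 470. The 7 plasma cell markers summed to 823 to 1010 CPM in unstimulated cells, 1600 to 1660 with vehicle and 1800 to 1850 with DSF. This sum did not stand for every marker. Of the 6 that could be tested, 3 were higher and 3 lower with DSF than in unstimulated cells. Erythroid markers summed to 3.41 CPM on average in unstimulated replicates 1 and 2 and to 28 in replicates 3 and 4, against 3.15 to 4.45 with DSF. Whether these other cells had a part in any result was not tested, and in bulk RNA fewer cells of a type and less RNA per cell cannot be told apart.

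IL-4 acts on B cells through STAT6, which drives genes such as Cish and Nfil3, and ligation of CD40 activates the NF-κB factors. Together they bring resting B cells into growth: ribosome, nucleotide and sterol synthesis are switched on and genes of quiescence and recirculation are switched off. DSF, a drug used against alcohol dependence, inhibits aldehyde dehydrogenase, and its metabolites bind copper and react with protein thiols. Proteins damaged in this way are sensed by the heat shock factor HSF1, thiol-reactive compounds by the KEAP1 and NRF2 system, and metal ions by MTF1, which drives the metallothioneins.

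Most of the transcriptome stayed away from the unstimulated level. Counts were compared with the quasi-likelihood test of edgeR after TMM scaling, a normalization that sets most genes to an unchanged level, with a Benjamini-Hochberg adjusted p under 0.05 as threshold. Of 14678 genes tested, 4901 (33.4%) were higher and 5178 (35.3%) were lower with IL-4+anti-CD40 and DSF than in unstimulated cells. In all, 68.7% were called, and the shares of 33.4% and 35.3% are the background for the list counts below. By 2-fold or more, 2185 (14.9%) were higher and 2700 (18.4%) lower. Groups did not overlap for 4620 of the genes called higher (31.5% of those tested) and 4761 of those called lower (32.4%). The split depended on the scaling: with total counts in place of TMM, 3117 genes were higher and 6760 lower, so that 31.6% of the called genes rather than 48.6% were higher, and the median of all genes moved from -0.00 to -0.31 on the log2 scale. All changes below are relative to the TMM level.

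Genes were then sorted by what the stimulus did without the drug. Over the 13739 genes tested in every comparison, IL-4+anti-CD40 with vehicle raised 1647 and lowered 2217 by 2-fold or more. In that comparison 30.4% of all 14433 genes tested were called higher and 32.1% lower (62.5% in either direction), 12% and 17.6% by 2-fold or more. Among the raised genes, 1414 (85.9%) were still called higher than unstimulated when DSF was present. A further 114 (6.92%) had returned, meaning that they were not called and that the 95% interval of the log2 fold change lay within -1 to 1, and 11 (0.668%) were called below the unstimulated level. The remaining 108 were undecided, with an interval too wide to place them. Among the lowered genes, 1875 (84.6%) were still lower with DSF, 152 (6.86%) had returned, 46 (2.07%) were called above the unstimulated level and 144 were undecided. The comparisons with and without DSF share the unstimulated libraries, so these counts are a description. Over the same genes, 475 genes were higher and 246 lower by 2-fold or more only when DSF was present, that is, called against unstimulated cells and in the same direction against vehicle, but not called for the stimulus alone.

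**Figure D1:**
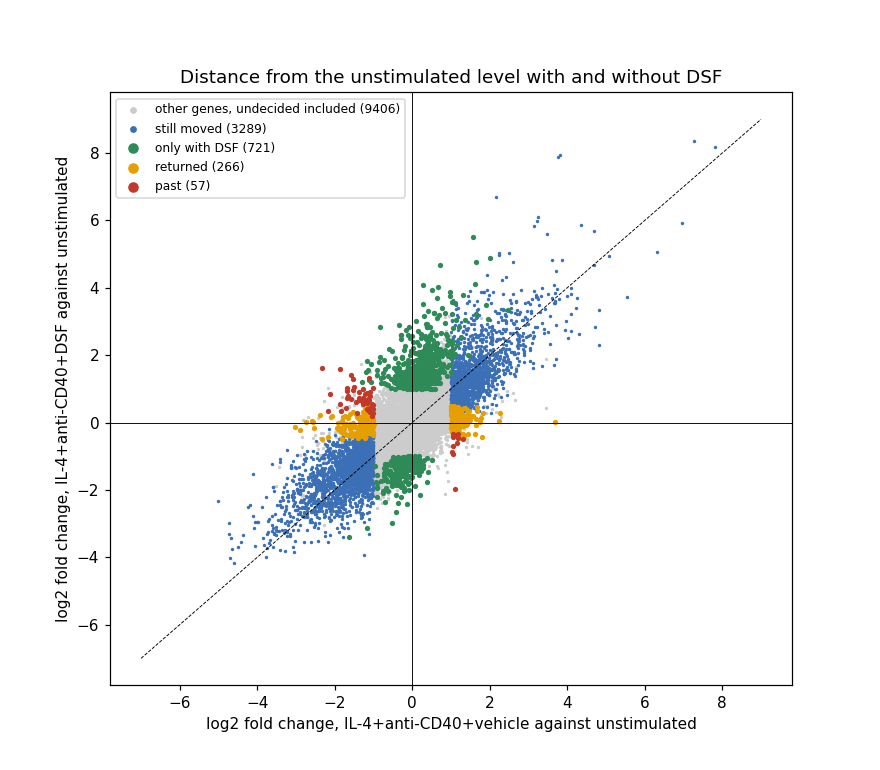
Log2 fold change against unstimulated cells of each gene tested in every comparison, with the stimulus and vehicle on the x axis and the stimulus and DSF on the y axis; colours mark the classes. The 1414 raised and 1875 lowered genes still moved lie on the same side of 0 on both axes, the 114 and 152 returned genes lie near 0 on the y axis, and the 475 and 246 genes moved only with DSF spread mainly along the y axis.

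Being still moved did not mean being untouched by the drug. The test of DSF against vehicle used no unstimulated library and called 30.1% of 14275 genes higher and 31.6% lower (61.8% in all), 9.59% and 4.94% by 2-fold or more. It placed 653 of the 1414 genes still raised nearer to the unstimulated level with DSF, 294 further from it and 467 in neither. Of the 1875 genes still lowered, 681 were nearer, 336 further and 858 not separated. The median log2 fold change over all 1647 raised genes was 1.45 with vehicle and 1.24 with DSF, and over all 2217 lowered genes it was -1.57 and -1.36.

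How many genes counted as returned depended on which unstimulated pair was the reference. The class was the same against either pair for 971 of the 1414 genes still raised and 1278 of the 1875 still lowered, but for only 22 of the 114 raised genes that had returned and 37 of the 152 lowered ones. It was the same for 3 of the 11 genes pushed below, Cad, Spout1 and Qsox2, and for 22 of the 46 pushed above. Among genes moved only with DSF, 233 of 475 higher and 105 of 246 lower kept the class against both pairs.

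**Figure D2:**
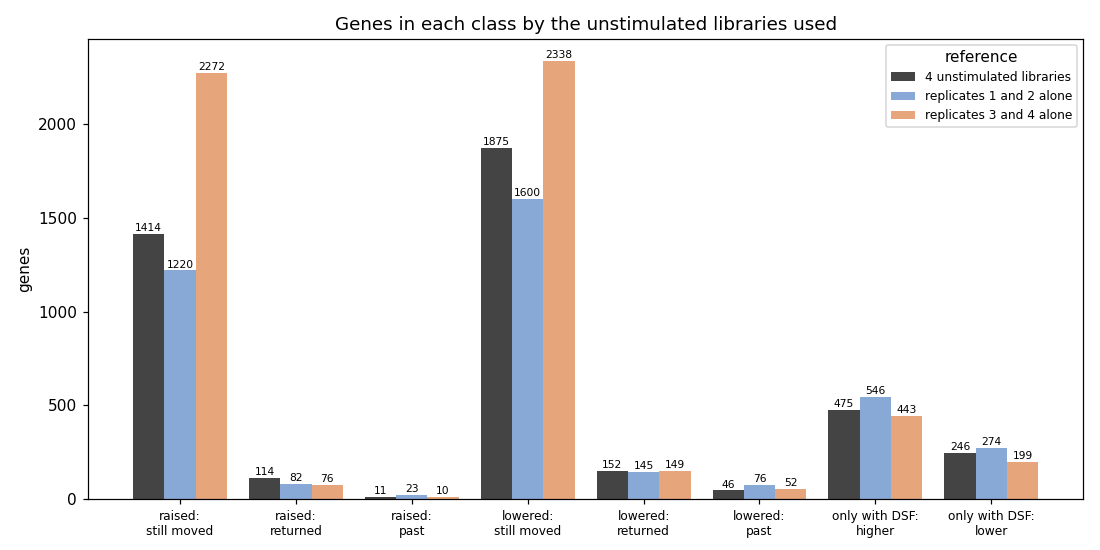
Number of genes in each class (y axis) when the reference is all 4 unstimulated libraries, replicates 1 and 2 or replicates 3 and 4. The classes of genes still moved are the largest against every reference, and the returned and past classes change with it.

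Genes of the IL-4 response stayed far above the unstimulated level. Of 16 genes on a list of IL-4 targets, all tested, 11 were higher and 2 lower with DSF, with a median log2 fold change of 1.53 against 2.12 with vehicle and -0.00 over all genes. Cish (ENSMUSG00000032578, chromosome 9, 107296026 to 107302784 in mm10), a feedback inhibitor of STAT signalling, was at 0.982, 1.69, 1.22 and 1.02 CPM in the unstimulated libraries and at 75.6, 74.2, 73.1 and 74.3 CPM with DSF. With vehicle it stood at 162, 160, 152 and 149.6 CPM. The DSF libraries thus lay between the other groups with no overlap, the log2 fold change against unstimulated cells being 5.91 (SE 0.153, adjusted p = 6.32e-08) and that against vehicle -1.06 (adjusted p = 5.02e-07).

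Nfil3, a transcription factor that IL-4 induces in B cells, followed the same order. It rose from 5.89, 6.03, 2.28 and 1.90 CPM in unstimulated cells to 57.7, 52, 51.6 and 53.4 CPM with DSF, and it was at 213, 227, 167 and 150.1 CPM with vehicle. The log2 fold change against unstimulated cells was 3.73 (3.14 and 4.67 against the unstimulated pairs, SE 0.354, adjusted p = 2.19e-05) and against vehicle -1.81. Socs1, another inhibitor of cytokine signalling, was in contrast not separated from vehicle: it was at 4.56, 5.1, 6.49 and 6.39 CPM in unstimulated cells, at 73.3, 75.7, 87.2 and 86.6 with DSF and at 68.8, 67.4, 69.2 and 87.2 with vehicle. Its log2 fold change against unstimulated cells was 3.84 (SE 0.137, adjusted p = 1.55e-07), and against vehicle it was 0.15 (adjusted p = 0.188). Socs3 and the kinase gene Pim1 were 3.40 and 2.80 above unstimulated cells on the log2 scale. The IgE receptor gene Fcer2a and Il4ra, the IL-4 receptor, were not called: Fcer2a was at 344 to 959 CPM in unstimulated cells and at 1078 to 1200 with DSF, above every unstimulated library, and Il4ra at 144 to 378 and 279 to 291.

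The NF-κB and CD40 genes behaved likewise. Of 27 on the list, 24 were higher than unstimulated with DSF and none lower, with a median log2 fold change of 1.29, against 1.52 with vehicle. None of the 24 overlapped between groups, which was also so for 9381 of all 10079 genes called. Against vehicle, 14 members were lower and 3 higher. The death receptor Fas was at 5.14 to 9.76 CPM in unstimulated cells, 38.2 to 44.0 with vehicle and 70.9 to 81.8 with DSF, so it was further from the unstimulated level with the drug (log2 fold change 3.33 against unstimulated cells, SE 0.191, adjusted p = 1.35e-06, and 0.90 against vehicle). Bcl2l1, which encodes the survival protein Bcl-xL, was at 23.1, 25.1, 5.86 and 7.96 CPM in unstimulated cells, 270, 292, 215 and 192 with vehicle and 107, 96.7, 105 and 106 with DSF. It was higher than unstimulated by 2.74 (SE 0.433, adjusted p = 0.000463) and lower than vehicle by 1.22 on the log2 scale (adjusted p = 5.55e-06), and against the unstimulated pairs it was higher by 2.08 and 3.91. Tnfaip3, an inhibitor of NF-κB, and the activation marker Cd83 rose by 2.69 and 2.56. Among surface molecules of activated B cells, 10 of 18 were higher and 3 lower, against 33.4% and 35.3% of all genes. Cd69 was at 57.4 to 84.9 CPM in unstimulated cells, 553 to 633 with vehicle and 604 to 760 with DSF, higher than unstimulated by 3.26 (SE 0.17, adjusted p = 8.6e-07) and not separated from vehicle (adjusted p = 0.0608). Il2ra, the IL-2 receptor α chain, differed between the unstimulated pairs: it was at 71.8, 71.1, 4.72 and 4.35 CPM in unstimulated cells and at 144, 137, 137 and 141 with DSF, above every unstimulated library, yet it was not called (log2 fold change 1.88, adjusted p = 0.0695).

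**Figure D3:**
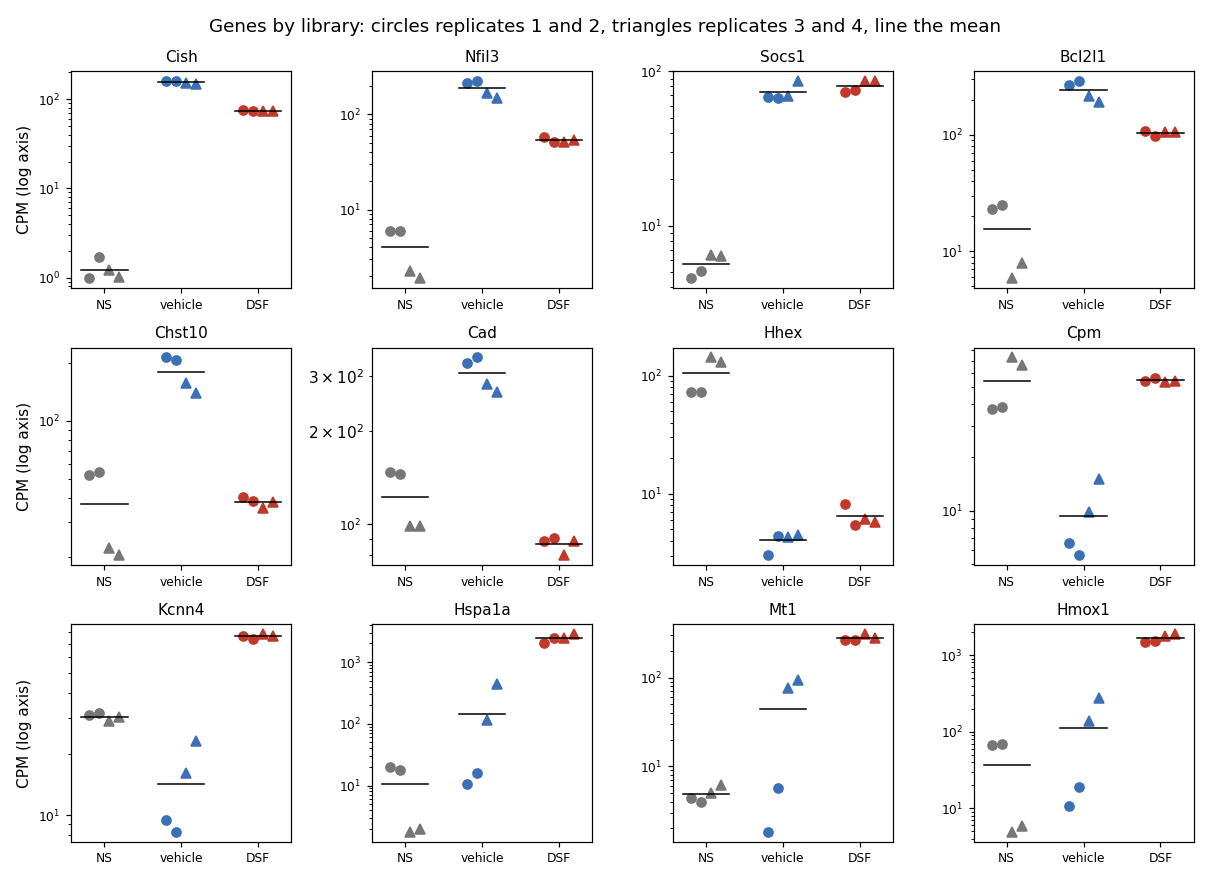
CPM after TMM scaling (log axis) of 12 genes in each of the 4 unstimulated, 4 vehicle and 4 DSF libraries; circles are replicates 1 and 2, triangles replicates 3 and 4, and lines are group means. Cish and Nfil3 with DSF lie between unstimulated and vehicle, and Chst10 and Cpm lie between the unstimulated pairs. Cad lies below and Kcnn4 above the unstimulated level, and Hspa1a, Mt1 and Hmox1 lie above both other groups.

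Gene groups of growth remained raised but lower than with vehicle. All but 2 of 71 ribosome biogenesis genes were higher than unstimulated (69 higher, none lower), with a median log2 fold change of 1.01 with DSF and 1.57 with vehicle, and 66 of the 71 were lower than with vehicle, against 31.6% of all genes in that comparison. Gnl3, a nucleolar GTPase, was at 131, 128, 66.6 and 69.9 CPM in unstimulated cells and at 358, 361, 399 and 369 with DSF, higher by 1.91 (SE 0.229, adjusted p = 8.88e-05) and lower than vehicle by 0.28 on the log2 scale (adjusted p = 0.00134). Of 24 sterol synthesis genes, 20 were higher and 1 lower, Dhcr7, with a median of 1.68 against 2.13 with vehicle. Hmgcs1, an early enzyme of the mevalonate pathway, was at 136, 138, 46.2 and 45.9 CPM in unstimulated cells and at 597, 556, 603 and 559.5 with DSF, a log2 difference of 2.66 (2.05 and 3.65 against the pairs, SE 0.387, adjusted p = 0.000281). Its feedback partner Insig1 rose by 2.66. Of 22 aminoacyl-tRNA synthetase genes, 18 were higher and 2 lower, Qars and Vars. Cars, Aars and Sars were further from the unstimulated level with DSF than with vehicle, whereas Vars fell below it by 1.02. Myc, a transcription factor of cell growth, was at 144, 148, 93.1 and 89.7 CPM in unstimulated cells, 672, 696, 601 and 577 with vehicle and 401, 394, 418 and 431 with DSF. Its log2 fold change was 1.79 against unstimulated cells (SE 0.171, adjusted p = 2.25e-05) and -0.63 against vehicle (adjusted p = 1.18e-05). Ccnd2, a D-type cyclin of cell cycle entry, was at 99.3 to 114 CPM in unstimulated cells, 1738 to 2437 with vehicle and 578 to 685 with DSF, so the group ranges were well apart (2.62 against unstimulated cells, SE 0.0842, adjusted p = 8.84e-08).

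A small set of induced genes lay back at the unstimulated level. Grm6, a glutamate receptor gene, was at 3.42, 3.01, 3.29 and 3.06 CPM in unstimulated cells, 45.5, 48.9, 35.5 and 35.3 with vehicle and 3.05, 3.15, 3.67 and 3.15 with DSF. The log2 fold change against unstimulated cells was 0.03, with a 95% interval of -0.29 to 0.34, while against vehicle it was -3.66 (adjusted p = 2.67e-07). The homeobox gene Hlx was at 4.64 to 5.35 CPM in unstimulated cells, 21.7 to 27 with vehicle and 5.63 to 6.56 with DSF, with an interval of 0.01 to 0.55 (adjusted p = 0.0605), although each of its DSF libraries was above each unstimulated one. Both kept this place against either unstimulated pair. Chst10, a sulfotransferase gene, did not: with DSF it was at 40.5, 38.7, 35.5 and 38.4 CPM, between unstimulated replicates 1 and 2, at 52.8 and 54.4, and replicates 3 and 4, at 22.0 and 20.4. Its log2 fold change was 0.03 against all 4 libraries, -0.52 against the first pair and 0.84 against the second, and it was called in opposite directions. The nucleoside transporter gene Slc29a1 was at 28.5 to 35.2 CPM with DSF and at 18.6 to 32.1 in unstimulated cells, and Dctd, a deoxycytidylate deaminase gene, at 3.04 to 4.20 and 3.61 to 6.40. Each had returned against only 1 pair. Slc29a1 was called higher against replicates 3 and 4 (0.72, adjusted p = 2.55e-05), and Dctd lower against replicates 1 and 2 (-0.78, adjusted p = 0.000657).

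Pushed below the unstimulated level were 11 genes that the stimulus had raised: Cad, Gart, Spout1, Nudcd2, Qsox2, Psmg1, Ppp1r3e, Rtl10, Mrc1, Gm32856 and Gm43910. Cad (ENSMUSG00000013629, chromosome 5, 31054780 to 31078479) encodes the enzyme that opens the pathway by which cells build pyrimidines anew. It was at 147, 145, 99.1 and 99.1 CPM in unstimulated cells, 330.2, 344, 283 and 266 with vehicle and 88.8, 90.2, 79.7 and 88.5 with DSF. Every DSF library was below every unstimulated one. The log2 fold change came to -0.50 (SE 0.142, adjusted p = 0.0123), being -0.78 against unstimulated replicates 1 and 2 and -0.20 against replicates 3 and 4. Against vehicle the change was -1.81 (adjusted p = 5.02e-07). Gart, an enzyme of purine synthesis, was called lower by 0.36, but at 72.6 to 84.7 CPM with DSF it overlapped unstimulated replicate 3, at 79.8. Qsox2, a sulfhydryl oxidase gene, was at 14.5, 14.2, 15.7 and 14.6 CPM in unstimulated cells and at 10.2, 9.81, 9.17 and 9.49 with DSF, lower by 0.61 on the log2 scale (SE 0.0888, adjusted p = 0.000279) after a rise of 1.14 with vehicle.

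Other enzymes of the pyrimidine pathway stood on both sides. Of 38 tested genes of pyrimidine metabolism, 23 were lower than unstimulated with DSF and 6 higher, with a median log2 fold change of -0.71 against -0.03 with vehicle. Dhodh, which follows Cad in the pathway, was at 22.8, 23.4, 24.4 and 25.3 CPM in unstimulated cells, 39.0, 36.8, 34.5 and 30.9 with vehicle and 13.5, 11.6, 14.7 and 13.9 with DSF. It was below every unstimulated library (-0.84, SE 0.0962, adjusted p = 6.74e-05) and had risen by less than 2-fold with vehicle, by 0.54. Umps, the last enzyme of uridine monophosphate synthesis, by contrast stayed above, at 29.7 to 42.6 CPM in unstimulated cells, 84.4 to 104 with vehicle and 58.4 to 62.7 with DSF (0.73, SE 0.117, adjusted p = 0.000508). Ctps, which supplies cytidine nucleotides, and Tk1, a thymidine kinase gene of the salvage pathway, also stayed higher, by 1.73 and 1.92. Tk1 was nonetheless lower than vehicle by 0.80 (adjusted p = 3.59e-06). Some other salvage and reduction enzymes were lower. Dck was lower by 2.17, after a fall of 2.74 with vehicle, and was thus higher than vehicle by 0.55 (adjusted p = 0.00052). The ribonucleotide reductase genes Rrm1 and Rrm2 were lower by 0.94 and 1.28. Of 15 purine synthesis genes, 10 were higher and 3 lower, Prps2, Adssl1 and Gart, and 12 were lower than with vehicle.

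**Figure D4:**
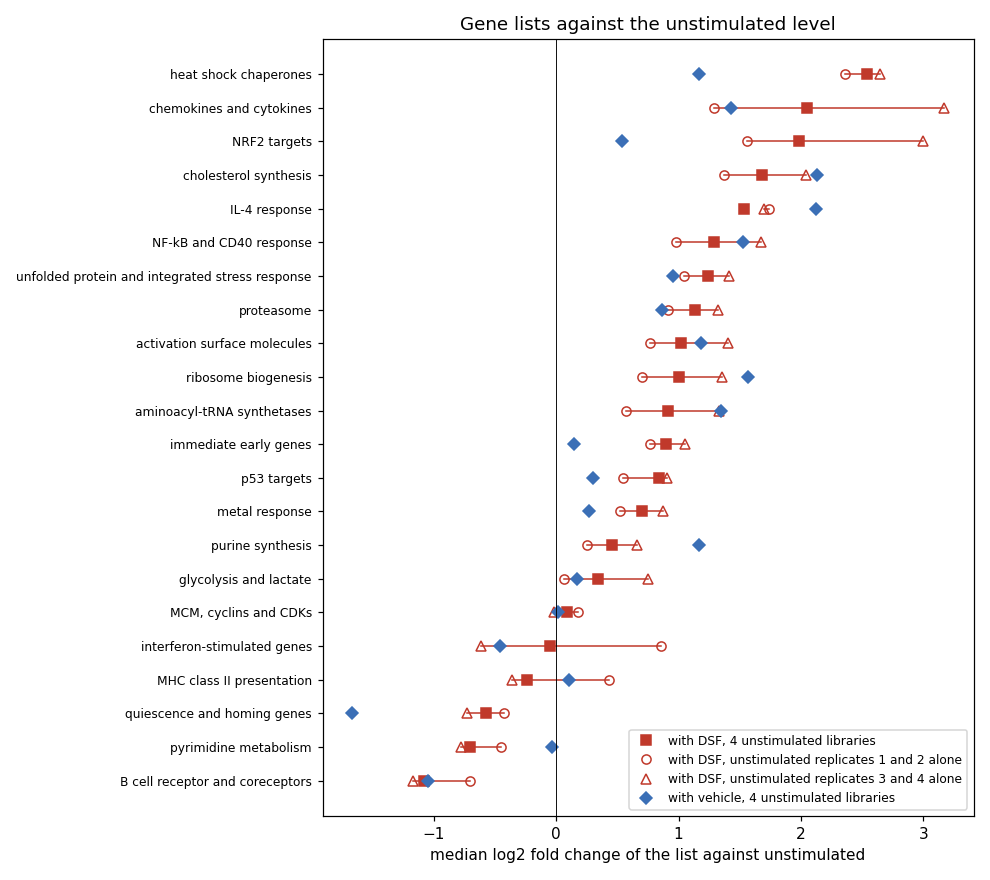
Median log2 fold change against unstimulated cells of each gene list, with DSF against all 4 unstimulated libraries and against each pair, and with vehicle against all 4. Heat shock chaperones and NRF2 targets have higher medians with DSF than with vehicle, ribosome biogenesis and cholesterol synthesis lower ones, and the medians of MHC class II and interferon-stimulated genes change sign between the unstimulated pairs.

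Among genes that the stimulus switched off, the larger part stayed low. Hhex, a homeobox gene, was at 72.0, 72.6, 142 and 131 CPM in unstimulated cells, 3.03, 4.44, 4.34 and 4.52 with vehicle and 8.25, 5.48, 6.17 and 5.82 with DSF. Its log2 fold change was -4.02 with DSF (SE 0.285, adjusted p = 4.18e-06), slightly nearer to unstimulated cells than with vehicle (0.66, adjusted p = 0.00599). Ccr6, a chemokine receptor gene, was driven further down: it was at 83.6, 85.4, 83.5 and 73.9 CPM in unstimulated cells, 36.6, 38.2, 34.7 and 29.5 with vehicle and 5.84, 6.34, 4.92 and 4.48 with DSF. The log2 fold change was -3.92 against unstimulated cells (SE 0.119, adjusted p = 7.25e-08) and -2.69 against vehicle (adjusted p = 5.02e-07). Among genes with enough counts to be named, Itih5, Pid1, Xkrx, Hepacam2, Fcgrt and Scml4 also had large decreases, with log2 fold changes of -4.17 to -3.75.

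Genes of quiescence and homing split over the classes. Of 24 on the list, 15 were lower than unstimulated with DSF and 4 higher, against 21 and 2 with vehicle, and the median was -0.57 with DSF and -1.67 with vehicle. Klf2, a transcription factor of resting lymphocytes, was at 201, 214, 481 and 437 CPM in unstimulated cells and at 49.1, 51.1, 50.9 and 53 with DSF, lower by 2.71 (SE 0.297, adjusted p = 5.08e-05) and by 0.22 below vehicle. S1pr1, the receptor for egress from lymphoid tissue, was at 207 to 366 CPM in unstimulated cells, 30.3 to 66.2 with vehicle and 154 to 159 with DSF, so it lay above vehicle but below every unstimulated library (-0.84, adjusted p = 0.00308). Btg2, Klf3 and Klf4 had returned, with log2 fold changes of -0.16, 0.25 and -0.33, but none of these 3 kept that class against both unstimulated pairs.

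B cell receptor genes stayed low as a group. Of 20 members, 14 were lower and 1 higher, Blk, a Src family kinase. The median was -1.08 with DSF and -1.05 with vehicle. Cd79a, a signalling chain of the receptor, was at 1402, 1337, 1891 and 1957 CPM in unstimulated cells and at 629, 606, 652 and 604 with DSF (-1.41, SE 0.139, adjusted p = 2.76e-05). The adaptor-proximal enzyme gene Plcg2 had returned, at 339 to 363 CPM with DSF against 263 to 477 in unstimulated cells and 149.5 to 216 with vehicle, but it did not keep that class against either pair taken alone. Several markers that define B cells belong to this group, and the B cell marker sums given above fell with it: 8 of 12 markers were lower and none higher.

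A group of genes lowered by the stimulus was restored, or more than restored, when DSF was present. Cpm, which encodes carboxypeptidase M, was at 37.6, 38.7, 73.0 and 66.5 CPM in unstimulated cells, 6.61, 5.65, 9.89 and 15.2 with vehicle and 53.9, 56.2, 53.3 and 54.0 with DSF. The DSF libraries fell between the unstimulated pairs, with a log2 fold change of 0.01 (95% interval -0.48 to 0.50), and against vehicle they were 2.55 higher (adjusted p = 4.61e-06). Cpm was called higher against unstimulated replicates 1 and 2 (0.48) and lower against replicates 3 and 4 (-0.37), so it had returned against neither pair alone. Palm, a membrane-associated protein gene, was at 9.0 to 10.7 CPM in unstimulated cells, 1.16 to 2.60 with vehicle and 8.04 to 10.1 with DSF (interval -0.43 to 0.11) and had returned against either pair.

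Kcnn4 (ENSMUSG00000054342, chromosome 7, 24370263 to 24386690), a calcium-activated potassium channel, went past. It was at 31, 31.8, 29.1 and 30.6 CPM in unstimulated cells, 9.44, 8.27, 16.2 and 23.2 with vehicle and 76.0, 74.1, 77.9 and 76.3 with DSF. The change against unstimulated cells was 1.31 (SE 0.0571, adjusted p = 3.61e-07), similar against either pair, at 1.25 and 1.34. Gpat3, an enzyme of glycerolipid synthesis, exceeded it further, at 18.5, 18.0, 18.4 and 18.5 CPM in unstimulated cells, 1.56, 1.86, 7.26 and 9.89 with vehicle and 55.8, 49.0, 59.6 and 55.1 with DSF (1.58, SE 0.0741, adjusted p = 5.07e-07). Ago4, Abcb9 and Tecpr1 exceeded the unstimulated level by 1.31, 1.42 and 1.06. Smaller excesses were found for genes of resting and migrating B cells. Cxcr4, a chemokine receptor, was at 482, 495, 406 and 382 CPM in unstimulated cells, 96.3, 91.0, 135.1 and 174 with vehicle and 555, 557, 555 and 579.5 with DSF, above every unstimulated library by 0.35 (SE 0.0912, adjusted p = 0.00771). Pik3ip1, an inhibitor of PI3 kinase, was at 57.1 to 71.9 CPM in unstimulated cells, 8.13 to 22.0 with vehicle and 75.4 to 87.3 with DSF (0.35, adjusted p = 0.00666), and the phosphatase gene Dusp1 rose by 0.80 after a fall of 1.66 with vehicle.

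Heat shock genes were among those furthest above the unstimulated level with DSF. Every one of 21 tested chaperone genes was higher than unstimulated, with a median log2 fold change of 2.54, against 1.17 with vehicle. Groups did not overlap for any of them, which was also so for 9381 of all 10079 genes called. Hspa1a (ENSMUSG00000091971, chromosome 17, 34969190 to 34972156, minus strand), an inducible Hsp70, was at 20.2, 17.8, 1.77 and 1.95 CPM in unstimulated cells and at 2071, 2464, 2455 and 2813 with DSF, 234-fold higher (log2 7.87, SE 0.89, adjusted p = 6.15e-05). The change was 6.98 against unstimulated replicates 1 and 2 and 10.36 against replicates 3 and 4. With vehicle it was at 10.5, 16.1, 113 and 442 CPM: vehicle replicates 1 and 2 did not exceed the corresponding unstimulated libraries, while replicates 3 and 4 did, and every DSF library lay above every vehicle library (4.08, adjusted p = 0.00289). Its neighbour Hspa1b followed it (7.93, adjusted p = 4.77e-05), but reads from these near-identical genes may have been divided between them, so they do not count as separate observations.

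Below the Hsp70 genes came the small chaperone Hspb1, at 0.864, 1.13, 0.126 and 0.37 CPM in unstimulated cells and 51.8, 67.2, 68.3 and 78.8 with DSF (6.70, SE 0.402, adjusted p = 1.71e-06). Hsph1, an Hsp110 exchange factor, was at 100.4, 96.9, 53.4 and 51.8 CPM in unstimulated cells, 199, 223, 378 and 649.5 with vehicle and 2240, 2420, 2498 and 2680 with DSF (5.03, adjusted p = 8.75e-07). The abundant chaperones moved too: Hspa8 rose from 993 to 1066 CPM in unstimulated cells to 9129 to 9788 with DSF (3.20, adjusted p = 6.32e-08) and Hsp90aa1 from 333 to 541 to 6106 to 6720 (3.87, adjusted p = 4.79e-07). Both have processed copies in the genome, so part of their counts is uncertain. Bag3, Dnajb1 and Hspa4l were called only with DSF, by 3.51, 2.29 and 2.48, and the regulators Hsf1 and Hsf2 differed least, by 0.59 and 0.83.

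The promoters of these genes can be read for the short inverted repeat bound by HSF1. The 250 bases before a RefSeq start are shown for 4 of the genes with the largest changes. A gene can have several such starts, and the start with the most matches to the repeat was the one shown. These windows are therefore examples picked for the repeat and do not measure how often it occurs. They are on GRCm38.p6 and on the gene's own strand 5′ to 3′, with GAANNTTC or TTCNNGAA in capitals. The windows are those of Hspa1a (chr17:34972157-34972406, minus), Hspa1b (chr17:34959239-34959488, minus), Hspb1 (chr5:135887669-135887918, plus) and Hsph1 (chr5:149636316-149636565, minus).
Hspa1a: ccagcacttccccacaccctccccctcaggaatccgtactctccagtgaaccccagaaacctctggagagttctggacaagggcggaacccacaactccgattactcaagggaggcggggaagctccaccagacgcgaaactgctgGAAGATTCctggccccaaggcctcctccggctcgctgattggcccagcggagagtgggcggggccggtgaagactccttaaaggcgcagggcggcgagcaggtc
Hspa1b: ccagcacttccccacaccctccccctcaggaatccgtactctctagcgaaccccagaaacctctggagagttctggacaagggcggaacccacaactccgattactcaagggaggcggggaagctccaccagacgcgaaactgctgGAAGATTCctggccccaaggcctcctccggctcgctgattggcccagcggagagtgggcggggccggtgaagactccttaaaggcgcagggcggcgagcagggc
Hspb1: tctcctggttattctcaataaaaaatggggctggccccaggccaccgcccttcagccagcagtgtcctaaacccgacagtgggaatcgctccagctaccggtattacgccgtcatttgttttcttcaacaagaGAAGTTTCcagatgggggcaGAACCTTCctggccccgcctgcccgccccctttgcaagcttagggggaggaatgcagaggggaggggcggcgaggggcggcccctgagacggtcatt
Hsph1: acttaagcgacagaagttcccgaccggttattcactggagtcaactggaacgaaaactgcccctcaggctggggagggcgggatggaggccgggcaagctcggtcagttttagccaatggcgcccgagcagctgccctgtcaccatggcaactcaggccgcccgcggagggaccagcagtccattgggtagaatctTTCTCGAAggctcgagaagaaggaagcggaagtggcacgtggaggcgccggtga

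Hspb1 held the repeat at 2 places and the others at 1. The upstream sequences of Hspa1a and Hspa1b were identical at 247 of 250 bases. A gene was counted as holding a motif if any of its promoters did. Of the 17 chaperone genes among the 21 that had a promoter in the RefSeq table, 9 (52.9%) held either form in this window. Of the 9009 tested coding genes with a promoter in the table, 1095 (12.2%) did. Counted per promoter, 4218 of all 32851 in the table (12.8%) did. Over the wider classes the share was 14.9% of 288 genes higher only with DSF. It was 17.7% of 192 raised genes that were further from unstimulated cells with DSF. The metal response element core TGCNCNC was held by 5 of 9 metal genes (55.6%) and by 56.6% of the 9009 tested genes. Those 9009 make up only 79.4% of the coding genes tested. Among the same genes the antioxidant response element TGACNNNGC was held by 5 of 17 NRF2 targets (29.4%) against 14%. The STAT motifs with 3 and 4 spacer bases were held by 15.4% and 7.69% of 13 IL-4 targets against 7.31% and 5.67%. The NF-κB motif was held by 2 of 23 NF-κB and CD40 genes (8.7%) against 1.45%. All motifs were searched on both strands. The repeats read the same on both strands, GAANNTTC and TTCNNGAA were searched separately and may overlap, and a match describes letters and not binding.

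Targets of NRF2 formed the second such group. Of 23 tested, 18 were higher than unstimulated with DSF and none lower, with a median log2 fold change of 1.99 (1.56 and 2.99 against the unstimulated pairs) against 0.54 with vehicle, and 20 were higher than with vehicle. Hmox1, which encodes heme oxygenase 1, was at 66.1, 69.3, 4.93 and 5.88 CPM in unstimulated cells, 10.8, 19.3, 139 and 272 with vehicle and 1478, 1545, 1754 and 1865 with DSF. Its log2 fold change was 5.51 (SE 0.915, adjusted p = 0.000628), or 4.59 and 8.26 against the unstimulated pairs, whereas the stimulus alone was not called (adjusted p = 0.251), its libraries lying on both sides of the unstimulated ones. Gclm and Txnrd1, enzymes of glutathione and thioredoxin metabolism, rose by 3.91 and 3.54, and the autophagy receptor gene Sqstm1 by 3.50. The ferritin heavy chain gene Fth1 was at 660.1 to 965 CPM in unstimulated cells, 356 to 1334 with vehicle and 4832 to 6137 with DSF (2.74, adjusted p = 1.81e-06), with the reserve that it too has many processed copies. Slc7a11 and Srxn1, of the same list, were not called (adjusted p = 0.195 and 0.33), and Blvrb had returned after a fall with vehicle.

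Genes of the metal response moved in both directions. Mt1, a metallothionein, was at 4.36, 3.98, 5.06 and 6.16 CPM in unstimulated cells, 1.82, 5.70, 75.7 and 93.4 with vehicle and 265, 265, 308 and 277 with DSF (5.83, SE 0.152, adjusted p = 6.32e-08). The zinc exporter gene Slc30a1 rose only with DSF, from 21.9 to 28.0 CPM in unstimulated cells and 15.4 to 49.96 with vehicle to 77.8 to 91.2 (1.75, adjusted p = 1.03e-06). Slc39a10, a zinc importer, moved the other way only with DSF: it was at 29.9, 28.6, 25.8 and 26.99 CPM in unstimulated cells, 42.9, 41.1, 24.8 and 20.6 with vehicle and 6.26, 6.72, 6.61 and 5.68 with DSF (-2.14, SE 0.0948, adjusted p = 3.97e-07). Of the 10 tested metal genes, 6 were higher and 4 lower, against 33.4% and 35.3% of all genes. Compared with vehicle, 5 were higher and 3 lower, with a median log2 fold change of 0.09.

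Most genes of protein quality control and stress signalling were higher than unstimulated, many of them with vehicle too. Of 33 proteasome genes, 32 were higher than unstimulated with DSF and none lower, with a median of 1.13 against 0.87 with vehicle. Of 25 genes of the unfolded protein and integrated stress responses, 21 were higher and 2 lower, Dnajc3 and Pdia4. With vehicle 21 were also higher and none lower, the median being 0.96 with vehicle and 1.24 with DSF. Against vehicle 11 were higher and 8 lower, with a median of 0.08, where 30.1% and 31.6% of all genes were called. Dnajb9, a co-chaperone of the endoplasmic reticulum, was at 29.0 to 36.2 CPM in unstimulated cells, 45.9 to 96.3 with vehicle and 270 to 315 with DSF (3.16, SE 0.0883, adjusted p = 6.32e-08), while Hspa5, its chaperone partner, rose by 1.84 and was not separated from vehicle. Chac1, a glutathione-degrading target of ATF4, was at 0.506 to 5.23 CPM in unstimulated cells, 30.0 to 33.9 with vehicle and 32.4 to 37.6 with DSF, and it too was not separated from vehicle (adjusted p = 0.271). Of 17 p53 targets, 10 were higher and 6 lower, against 33.4% and 35.3% of all genes. Cdkn1a, an inhibitor of cyclin-dependent kinases, was at 37.4, 33.0, 2.40 and 2.32 CPM in unstimulated cells and 227, 242, 284 and 300.1 with DSF (3.81, or 2.87 and 6.79 against the pairs, adjusted p = 0.00348), whereas Sesn1 fell by 2.35.

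Immediate early genes, which respond within minutes to many signals, stood mostly above. Of 24, 15 were higher and 4 lower, with a median of 0.90 with DSF and 0.15 with vehicle, and 17 were higher than with vehicle. Fosl1 was at 4.44, 3.94, 0.464 and 0.556 CPM in unstimulated cells, 8.23 to 15.3 with vehicle and 41.4, 41.5, 48.4 and 48.6 with DSF (4.24, or 3.39 and 6.45 against the pairs, SE 0.606, adjusted p = 0.000251). Atf3 and Jun were called only with DSF, by 3.78 and 1.67, in each case with 1 of the unstimulated pairs as reference but not with the other. Fos was called lower, by 1.90, but this rested on the reference: it was at 21.2 and 19.3 CPM in unstimulated replicates 1 and 2, 199.8 and 190 in replicates 3 and 4, and 27.6 to 30.6 with DSF.

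Other genes far above the unstimulated level had low or uneven counts. Slc7a2, an arginine transporter, had the largest fitted change (8.37, adjusted p = 2.12e-06), but with at most 6 counts in an unstimulated library its fold depends on the fit; with DSF it was at 23.1, 29.5, 49.8 and 56.7 CPM and with vehicle at 6.16, 7.36, 24.2 and 37.4, which was not separated (adjusted p = 0.0755). Efr3b was at 0.0463 to 0.321 CPM in unstimulated cells and 24.1 to 34.5 with DSF, and Rgcc, a cell cycle regulator, at 0.864 to 2.15 and 21.8 to 31.3. Of 17 chemokine and cytokine genes, 11 were higher and 2 lower, with a median of 2.05 against 1.43 with vehicle. Within replicates 1 and 2 of each group that median was 0.66, and within replicates 3 and 4 it was 3.7. The chemokine genes Cxcl2 and Cxcl3 were called only with DSF, though against unstimulated replicates 3 and 4 the stimulus alone had raised them too, with DSF replicates 1 and 2 at 13.9 and 23.1 and replicates 3 and 4 at 71.0 and 75.4 CPM for Cxcl2. Maff, a partner of NRF2, rose by 5.997 and was 2.78 above vehicle.

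Among the genes lowered only with DSF, Mef2c, a transcription factor of B cell activation, was at 552.5, 559, 560 and 517.5 CPM in unstimulated cells, 508.5, 535, 389 and 375 with vehicle and 129.9, 126, 105 and 111 with DSF. Its log2 fold change was -2.21 (SE 0.0857, adjusted p = 2.1e-07), and against vehicle it was -1.94 (adjusted p = 9.18e-07). Bcl11a, needed for lymphoid development, was at 90.0, 95.9, 307 and 292 CPM in unstimulated cells and 41.2, 39.0, 36.7 and 33.3 with DSF (-2.39, or -1.34 and -3.01 against the pairs, adjusted p = 0.000915). Pax5, which maintains B cell identity, was at 619.8, 625, 1292 and 1208 CPM in unstimulated cells, 697 to 899.8 with vehicle and 351 to 372 with DSF (-1.36, adjusted p = 0.00115). Neither Bcl11a nor Pax5 kept this class against the unstimulated pairs taken singly, whereas Mef2c did. The cytosolic glycosidase gene Engase and the ketone body enzyme gene Bdh1 fell by 2.41 and 2.15.

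For a few groups the direction could not be fixed. MHC class II genes had a median of -0.24 against all unstimulated libraries, 0.43 against replicates 1 and 2 and -0.36 against replicates 3 and 4, with 2 of 11 higher and 4 lower. The median of 20 interferon-stimulated genes was -0.05, or 0.86 and -0.62 against the pairs, and 3 were higher and 3 lower. The DSF libraries differed in these genes in the same way as the unstimulated ones, replicates 1 and 2 lying below 3 and 4, and within replicates 1 and 2 of each group the median was 0.17. That of 25 MCM, cyclin and CDK genes was 0.09, against -0.02 with replicates 3 and 4 as reference and -0.22 with total counts. Glycolysis genes, at 8 higher and 5 lower of 19, had a median of 0.34, against 33.4% higher and 35.3% lower over all genes.

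The question whether the distance from the unstimulated level depended on the stimulus was put to the libraries given LPS and DSF, in a test of 4 against 4 in which no unstimulated library enters. Of 14352 genes, 3349 (23.3%) were higher with IL-4+anti-CD40 and DSF and 3128 (21.8%) lower, 45.1% in all, and by 2-fold or more 2.31% and 5.32%. The IL-4 targets Nfil3 and Cish stayed higher with IL-4+anti-CD40, by 1.92 (adjusted p = 1.06e-12) and 1.08 (adjusted p = 3.55e-10), and Cad by 0.47. Cells given LPS and DSF received no IL-4, yet Cish, Socs1 and Nfil3 lay 4.8, 3.29 and 1.78 above the unstimulated level there. Under IL-4+anti-CD40 the same distances in the presence of DSF were 5.91, 3.84 and 3.73. Which part of these distances came from IL-4 was not tested. Myc was lower with IL-4+anti-CD40 by 1.42 (adjusted p = 3.21e-13). Stress genes varied: Hspa1a differed by -0.35 (adjusted p = 0.0053) and Hmox1 by -0.10, with a 95% interval of -0.24 to 0.05 (adjusted p = 0.264), while Cdkn1a was lower by 0.997 (adjusted p = 7.12e-09), Atf3 by 0.61 and Maff by 0.57, and Mt1 and Trib3 were higher by 0.89 (adjusted p = 2.58e-08) and 0.86. Cmpk2, an interferon-stimulated kinase, lay on opposite sides of the unstimulated level, 1.77 below it with IL-4+anti-CD40 and DSF and 3.08 above it with LPS and DSF, a difference of -4.87 (adjusted p = 2.82e-12). Against unstimulated replicates 1 and 2 alone its fall was 0.36 and was not called.

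A second experiment held 1 library per condition, with 18722471 counts in unstimulated cells, 17602312 with vehicle and 16049295 with DSF, and served for directions only, as log2 ratios of CPM without a test. In it, 80.6% of the genes called higher in the first experiment and 85.8% of those called lower lay on the same side of the unstimulated library. Over all genes, 48.4% lay above that library. These shares depended on the scaling. With total counts they were 65% and 93.2%, and 35.6% of all genes lay above. Genes further from or moved only with DSF lay there most often: 98.6% of the raised genes that were further with DSF and 96% of those higher only with DSF, with a median ratio of 2.08, and 92.8% of those lower only with DSF. Genes that had been nearer went further back. Still-raised genes placed nearer had a median of 0.98 in the first experiment and 0.08 in the second, and the returned genes had a median of -1.12, with 8 of 113 above the unstimulated library. Lowered genes that had returned had a median of 0.82. Cish was still 3.68 and Nfil3 1.63 above, Socs1 was at -0.07 and Cad, Dhodh and Chst10 were at -2.03, -2.44 and -2.13. The NF-κB and growth genes described above were divided. Fas, Tnfaip3 and Gnl3 were 3.38, 1.51 and 1.34 above, whereas Myc was at 0.268, Umps at -0.105 and Bcl2l1 at -0.48. Kcnn4, Gpat3 and Cpm were 3.01, 3.00 and 2.16 above, and Hspa1a, Mt1 and Hmox1 9.88, 5.07 and 4.63. The unstimulated library of the second experiment was nearer to replicates 1 and 2 of the first for 717 of the 880 genes on which the pairs differ (81.5%).

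**Figure D5:**
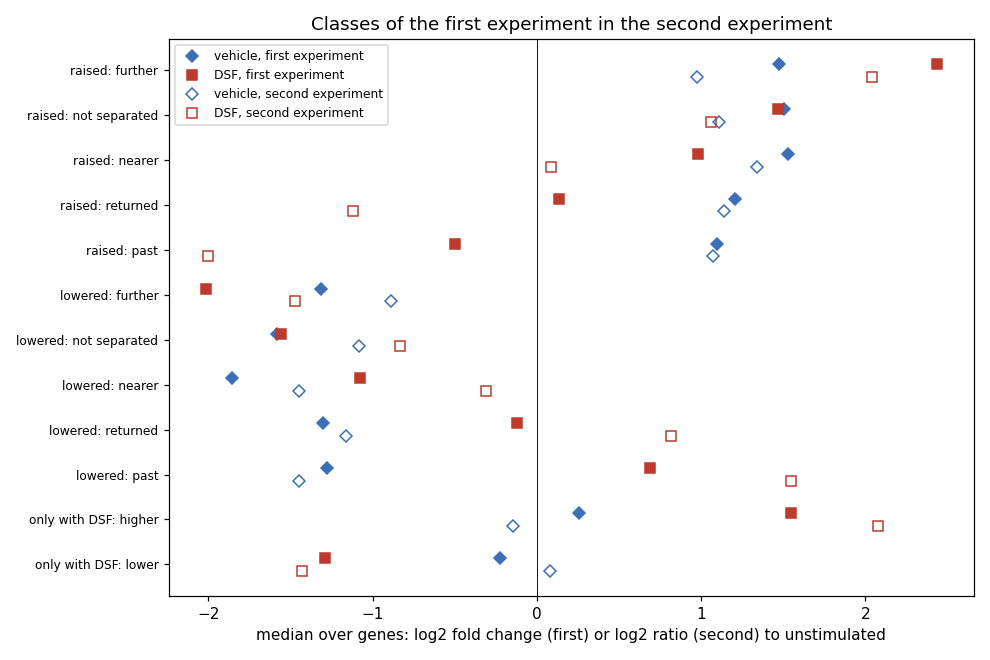
Median log2 ratio of each gene class with IL-4+anti-CD40 and DSF against unstimulated cells, in the first experiment (4 libraries a group) and in the second (1 library a condition). Classes further from the unstimulated level or moved only with DSF keep their side, and raised genes that had returned lie below 0 in the second experiment.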

How the data were processed

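RNA was sequenced from splenic B cells cultured for 3 h. Per the study's methods, the authors trimmed reads with Fastp, aligned them to mm10 with HISAT2 2.0.5 and counted them per gene with featureCounts 1.5.0-p3, and the whole-number counts were deposited. The deposited tables also hold FPKM values, which the authors made from gene length and counts and which entered no test. The annotation release and the strand setting are not given in the sources used here.

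Counts of 8 libraries per comparison were fitted in R 4.3.3 with edgeR 4.0.16 (filterByExpr, TMM, quasi-likelihood test, Benjamini-Hochberg threshold 0.05), and DESeq2 1.42.0 was an alternative. The table held 54532 genes. The script was tested on simulated data. The second experiment was read as log2 ratios of TMM-scaled CPM with a prior count of 2, over genes averaging 10 counts or more. Other alternatives changed the scaling, the filters, the libraries in a fit, the margin for returned genes, the replicate block and each library in turn.

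Members and gene lists were chosen with earlier results of these data known. Named genes were coding, reached 100 counts in each library of the group where they were higher, were called and did not overlap between groups, all in the contrast that ranked them. The 8 largest changes in each direction, 5 per class and direction, 5 per direction moved only with DSF and 3 called members per list were taken, the last without the count minimum or the overlap rule, plus Cad, Dhodh, Umps, Myc, Cish, Mt1, Mt2, Hspa1a and Hmox1. Mt2 had too few counts to be tested. Other genes in the text, such as Cxcr4, Pik3ip1, Dusp1, Fth1, Hsph1, Hspa8, Il2ra, Fos, Pax5, S1pr1 and the remaining members of the class of 11 or of the lists, were chosen after their values were seen. Of 112 named genes, 60 overlap another annotated gene, and without a stated strand setting their reads cannot be told apart. Promoter sequences came from RefSeq on GRCm38.p6, which is the mm10 assembly.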

Additional observations from a re-analysis of the deposited data

Results flagged for a closer look

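In 16 of 339 groups of 4 values tested, 1 library lay far enough from the other 3 to be set apart, and chance alone sets apart about 1 in 20 such groups. With DSF, the libraries set apart were replicate 1 for Spout1 (20.55 CPM), Rgcc (21.82 CPM), Sesn1 (25.6 CPM) and H2-Oa (33.49 CPM), replicate 2 for Bcl2l1 (96.69 CPM) and replicate 3 for Grm6 (3.666 CPM) and Cad (79.74 CPM). With vehicle, they were replicate 1 for Hhex (3.029 CPM), replicate 3 for Rapgef4 (1.365 CPM) and replicate 4 for Socs1 (87.15 CPM), Dck (14.3 CPM) and Idi1 (224.8 CPM). Vehicle replicate 4 also had the lowest total count, 17804851. Among the unstimulated libraries, they were replicate 4 for Ccr6 (73.85 CPM) and Mef2c (517.5 CPM) and replicate 2 for Gpat3 (17.96 CPM).

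Cmpk2 lay below the unstimulated level with IL-4+anti-CD40 and DSF and above it with LPS and DSF, and the difference of the log2 fold changes was -4.868 in the edgeR test (adjusted p = 2.82e-12).

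Of the 112 named genes, 3 were called higher in the first experiment without overlap between groups, yet lay below the unstimulated library of the second. Their log2 ratios there, each 1 or more below, were -3.06 for Slc7a2, -2.16 for Cxcl3 and -2.87 for Cxcl10. Rsad2 and Oasl1, called higher but with overlapping groups, also lay below it, at -3.36 and -1.8. With 1 library per condition there, this difference was not tested.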

How the results depend on the processing

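The number of genes called on either side kept within 1.5 times of that reported under every alternative except total counts, which gave 3117 genes higher, 1450 of them by 2-fold or more. The returned, past and undecided classes moved most, and values against the unstimulated pairs and within the replicate sets were added after seeing the data. The cause of these shifts was not tested. Low counts limit the undecided class: with at least 10 counts in every library it held 37 raised and 71 lowered genes in place of 108 and 144.

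With total counts in place of TMM, the gene counts by class that moved were raised past 20, lowered past 30, raised not separated 297, raised further 185 and lowered further 601. Against unstimulated replicates 1 and 2 alone, the gene counts by class that moved were raised past 23, lowered past 76, lowered undecided 75 and lowered further 217. Against unstimulated replicates 3 and 4 alone, the gene counts by class that moved were raised still moved 2272, lowered undecided 60, raised not separated 775 and raised further 578. Within replicates 1 and 2 of each group, the gene counts by class that moved were raised past 38, lowered returned 229, lowered past 186, raised further 171 and lowered further 145. Within replicates 3 and 4 of each group, the gene counts by class that moved were raised still moved 2237, raised returned 59, raised past 7, lowered past 18, lowered undecided 86, only with DSF higher 247, only with DSF lower 138, raised not separated 971, raised further 593 and lowered not separated 1422. With all genes that had any count, the gene counts by class that moved were raised undecided 379, lowered undecided 439, only with DSF higher 767 and lowered not separated 1441. With at least 10 counts in every library, the gene counts by class that moved were raised undecided 37, lowered undecided 71 and raised not separated 295. With the 3 groups in 1 fit of 12 libraries, the gene counts by class that moved were lowered undecided 224, raised not separated 911 and lowered not separated 1409. With all 20 libraries in 1 fit, the gene counts by class that moved were lowered undecided 241, raised not separated 837 and lowered not separated 1397. With a margin of 0.58 in place of 1 for returned genes, the gene counts by class that moved were raised returned 54, raised undecided 168, lowered returned 58 and lowered undecided 238. With no minimum fold of the stimulus, the gene counts by class that moved were raised still moved 3111, raised returned 791, raised past 232, raised undecided 166, lowered still moved 3333, lowered returned 550, lowered past 233, raised nearer 1030, raised not separated 1194, raised further 887, lowered not separated 1486 and lowered further 1038.

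With total counts in place of TMM, the list medians that moved were IL-4 response 1.22, immediate early genes 0.584, activation surface molecules 0.7, pyrimidine metabolism -1.01, purine synthesis 0.146, MCM, cyclins and CDKs -0.219, heat shock chaperones 2.22, metal response 0.391, unfolded protein and integrated stress response 0.926, p53 targets 0.533, quiescence and homing genes -0.879 and proteasome 0.822. Against unstimulated replicates 1 and 2 alone, the list medians that moved were IL-4 response 1.74, immediate early genes 0.768, activation surface molecules 0.762, pyrimidine metabolism -0.45, aminoacyl-tRNA synthetases 0.571, metal response 0.518, unfolded protein and integrated stress response 1.04, p53 targets 0.548, B cell receptor and coreceptors -0.706, MHC class II presentation 0.434 and interferon-stimulated genes 0.856. Against unstimulated replicates 3 and 4 alone, the list medians that moved were IL-4 response 1.7, NF-kB and CD40 response 1.68, immediate early genes 1.06, activation surface molecules 1.4, chemokines and cytokines 3.17, ribosome biogenesis 1.36, aminoacyl-tRNA synthetases 1.33, MCM, cyclins and CDKs -0.0196, glycolysis and lactate 0.746, metal response 0.871, NRF2 targets 2.99 and unfolded protein and integrated stress response 1.41. Within replicates 1 and 2 of each group, the list medians that moved were NF-kB and CD40 response 0.862, immediate early genes 0.751, activation surface molecules 0.7, chemokines and cytokines 0.66, pyrimidine metabolism -0.439, NRF2 targets 1.45, unfolded protein and integrated stress response 1.06, p53 targets 0.557, B cell receptor and coreceptors -0.685, MHC class II presentation 0.438, proteasome 0.874 and interferon-stimulated genes 0.166. Within replicates 3 and 4 of each group, the list medians that moved were IL-4 response 1.76, NF-kB and CD40 response 1.68, immediate early genes 1.11, activation surface molecules 1.5, chemokines and cytokines 3.7, ribosome biogenesis 1.35, aminoacyl-tRNA synthetases 1.35, glycolysis and lactate 0.758, NRF2 targets 3.08, unfolded protein and integrated stress response 1.42 and proteasome 1.42. With a replicate block, the list medians that moved were immediate early genes 1.06, activation surface molecules 1.31, pyrimidine metabolism -0.572 and NRF2 targets 2.63. With total counts in place of TMM, the sign of the log2 fold change turned for Grm6 -0.283, Hlx -0.0257, Chst10 -0.286, Slc29a1 -0.0206, Cpm -0.291 and Tcp11l2 -0.0805. Against unstimulated replicates 1 and 2 alone, the sign of the log2 fold change turned for Grm6 -0.0123, Chst10 -0.516 and Slc29a1 -0.0697. Against unstimulated replicates 3 and 4 alone, the sign of the log2 fold change turned for Mturn 0.328 and Cpm -0.367. Within replicates 1 and 2 of each group, the sign of the log2 fold change turned for Grm6 -0.0733 and Chst10 -0.455. Within replicates 3 and 4 of each group, the sign of the log2 fold change turned for Dctd 0.0832, Mturn 0.238 and Cpm -0.385. With all genes that had any count, the sign of the log2 fold change turned for Grm6 -0.0303, Chst10 -0.0229 and Cpm -0.0479.

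With total counts in the second experiment, the percent of genes on the side of their class that moved were raised still moved 60.8, raised undecided 43.8, lowered still moved 88.4, lowered returned 33.1, lowered undecided 38.3, only with DSF higher 93.4, only with DSF lower 97, raised nearer 33.9, raised not separated 76.7, lowered nearer 81.3, lowered not separated 89.8 and lowered further 99.4. With a mean of at least 50 counts there, the percent of genes on the side of their class that moved were raised nearer 59.6, raised not separated 93.4 and lowered not separated 84.6.

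Leaving out 1 library at a time gave 6 to 17 for raised past, 87 to 183 for raised undecided, 33 to 83 for lowered past, 116 to 266 for lowered undecided, 0.873 to 1.05 for immediate early genes, 0.794 to 1.28 for activation surface molecules, 1.1 to 1.28 for unfolded protein and integrated stress response, -0.338 to 0.178 for interferon-stimulated genes, -0.0264 to 0.0509 for Grm6, -0.19 to 0.247 for Chst10 and -0.148 to 0.177 for Cpm. Genes pushed below numbered 17 without unstimulated replicate 4, 6 without vehicle replicate 1, and 7 without DSF replicate 2 or 3, and genes pushed above numbered 83 without vehicle replicate 4. The undecided counts rose without any 1 of the DSF replicates, to between 169 and 183 raised and between 249 and 266 lowered genes.

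Same-numbered libraries of unstimulated and DSF-treated cells did not deviate together (correlations of -0.00621, 0.0224, -0.0287 and -0.0165), so the numbers were not taken to pair them. Between vehicle and DSF libraries, same numbers correlated at 0.22, -0.0357, -0.0327 and 0.207 and different numbers at -0.245 to 0.179. The test of DSF against vehicle was likewise unpaired. Against unstimulated cells, the replicate block gave 4749 genes higher and 4876 lower with DSF, compared with 4901 and 5178 without it. For DSF against vehicle the block gave 4155 and 4310, compared with 4301 and 4514.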
